A study of Mus musculus with 12 samples.

Results

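The potassium channel gene family was taken as every protein-coding gene whose mouse symbol begins with Kcn and whose mean level over the 12 libraries was at least 1 CPM (the gene's counts for every 1000000 expected counts of its library). Of 94 protein-coding Kcn genes in the annotation and the tables, 79 met this minimum and 15 did not, among 38924 genes measured. All 79 members also passed the low-count filter, which left 16493 genes for testing. They fall into 20 subfamilies, from 13 Kcnj genes and 10 Kcnk genes down to single Kcnf, Kcnv, Kcnma and Kcnu genes. The members just above the minimum were Kcnmb1 at 1.33 CPM, Kcnh8 at 1.53 CPM and Kcnk5 at 1.59 CPM, and the genes just below it were Kcnq1 at 0.605 CPM, Kcnrg at 0.395 CPM and Kcnv2 at 0.307 CPM.

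The libraries are poly(A) RNA-seq libraries of whole brain from mice aged 6 weeks, 3 mice per genotype. The 3 mutant groups are homozygous for alleles of Rorb, a nuclear receptor gene, and belong to a series of mice described as high steppers: Rorbh1/h1 mice on C57BL/6J (h1), Rorbh2/h2 mice, whose strain is B6(Cg)-Tyrc-2J/J (h2) and Rorbh4/h4 mice on B6.129S7-Il1r1tm1Imx/J (h4). The mutants were set against wild type mice on C57BL/6J (WT), whose strain the h1 group alone shares, and for h2 and h4 the effect of the Rorb allele and that of the strain, with its Tyr or Il1r1 allele, cannot be told apart. The labels name no sex, litter or batch, and nothing in them says more of the mice than that they were separate.

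Potassium channels let potassium leave or enter the cell and so set the resting potential of neurons, end the action potential and shape how often a neuron fires. Voltage-gated channels are assembled from pore subunits that can mix within a subfamily, from electrically silent subunits that modify certain pore subunits, and from auxiliary subunits. Inward rectifiers (Kcnj) and tandem-pore leak channels (Kcnk) carry the current at rest, and glia use inward rectifiers to take up potassium that neurons release.

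Library totals ran from 14513825 to 24694178 expected counts. Rorb itself had 9.11, 8.65 and 8.66 CPM in the h4 libraries, 23.2, 33.1 and 22.6 CPM in the h1 libraries, 31.1, 31.0 and 22.6 CPM in the h2 libraries and 18.4, 16.3 and 17.1 CPM in the WT libraries, and h4 was lower than WT by edgeR's quasi-likelihood test (log2 fold change -0.98, SE 0.20, adjusted p = 0.0309). Xist, the RNA of the inactive X chromosome, was high in 7 libraries, at 783 CPM or more, and at most 1.34 CPM in the other 5. The high libraries were 1 of 3 in h1, 1 of 3 in h2, 2 of 3 in h4 and all 3 in WT. Pairs of libraries of 1 genotype differed beyond counting error (chi-square of 2.38 to 4.47 for each degree of freedom). P-values set a difference between groups against the spread between mice of 1 genotype, estimated over the 4 genotypes together. Counts in bulk tissue cannot tell fewer cells of a type from less RNA per cell.

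The family took a similar part of the RNA in every genotype. The summed level of the 79 members was 4931 to 5009 CPM in h1, 4893 to 5088 CPM in h2, 4758 to 4831 CPM in h4 and 4826 to 5058 CPM in WT. The h4 libraries were the low ones, with the highest of them just above the lowest WT library. Per length, on the TPM scale (RSEM's abundance scaled for transcript length), inward rectifiers made up 16.9% of the family's mean sum of 2386 TPM. The Kcnab beta subunits, which bind Kcna channels from the cytosol, made up 12.3%, the fast-gating Kcnc channels 10.9% and the Kcnip proteins, calcium-binding partners of Kcnd channels, 10.4%. Kcnk genes gave 7.90%, Kcna genes 7.80% and Kcnq genes 7.35%.

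In several subfamilies a single gene carried most of the level. Kcnab2 had the highest level of the family at 168 TPM, averaged over the 12 libraries. Kcnj10, the inward rectifier of astrocytes and oligodendrocytes, averaged 142 TPM and made up 35.3% of the Kcnj sum. Kcnc1 averaged 108 TPM, the leak channel Kcnk1 94.1 TPM and the sodium-activated channel Kcnt1 85.3 TPM. Among smaller subfamilies, Kcnmb4, the neuronal beta subunit of the Kcnma1 channel, gave 94.1% of the Kcnmb sum at 53.6 TPM, and Kcnn2, a calcium-activated channel, gave 76.3% of the Kcnn sum at 37.1 TPM. Leading genes of other subfamilies were Kcna1 at 64.3 TPM, Kcnd2 at 56.5 TPM, Kcnip4 at 72.8 TPM, Kcnma1 at 40.1 TPM, Kcnf1 at 40.0 TPM, Kcnh3 at 34.4 TPM, Kcnv1 at 30.5 TPM, Kcng4 at 19.9 TPM, Kcns2 at 11.2 TPM, Kcne1l at 10.2 TPM and Kcnu1 at 5.202 TPM.

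**Figure D1:**
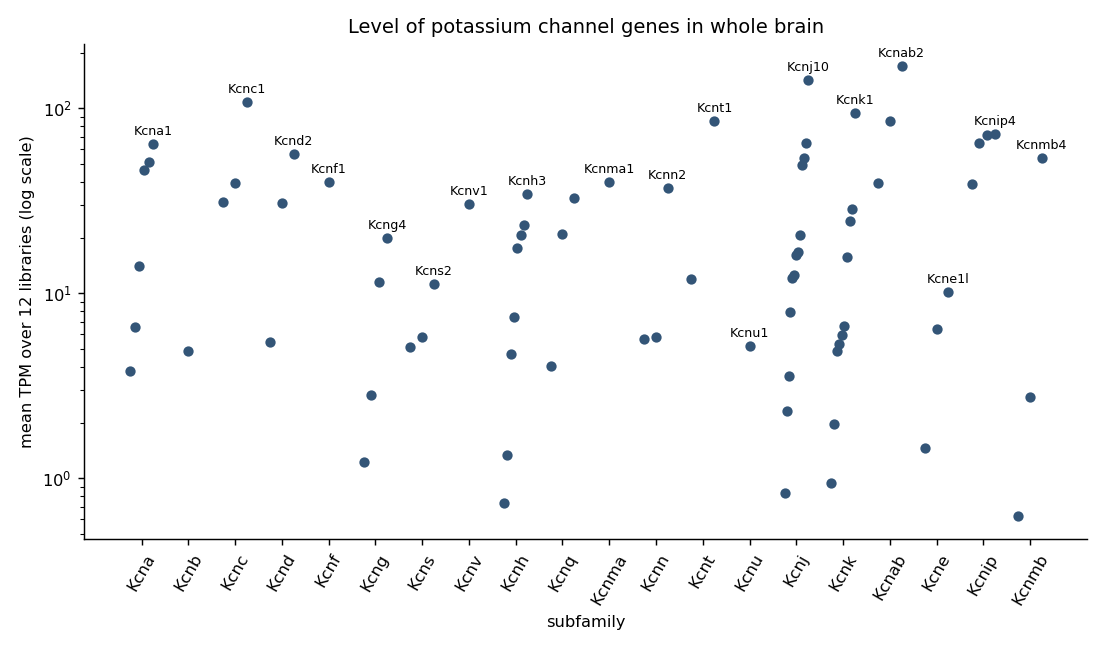
Each point is 1 potassium channel gene of those reported here, placed by subfamily on the horizontal axis and by its mean TPM over the 12 libraries on a log vertical axis; the gene of highest level in a subfamily is named where it is reported here. Kcnab2 at 168 TPM and Kcnj10 at 142 TPM stand highest, and the Kcne and Kcnu genes sit at or below 10.2 TPM.

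Levels were tight between mice of a genotype. The median member had a coefficient of variation within genotype of 6.19%, averaged over the 4 genotypes. The A-type channel gene Kcnd2 varied least, at 2.21%, and Kcnh8, with 24.7%, and Kcng3, with 24.1%, varied most, both of them genes of low level.

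The comparison of h4 with WT asked which channel genes differed in brains homozygous for the allele that came with the lowest Rorb level. Of the 79 members 6 changed, and all were lower in h4 than in WT. The 5 described here are the delayed rectifier Kcnb2, the silent subunit Kcng1, the ether-a-go-go type channels Kcnh1 and Kcnh3, and the inward rectifier Kcnj4. No member was higher, although Kcng4, a silent subunit, was called higher with no low-count filter, in a fit of the h4 and WT libraries alone, with the high-Xist libraries alone and without h1 library 2 or 3. By edgeR with Benjamini-Hochberg adjustment, 7.59% of members passed an adjusted p of 0.05, against 4.55% of all genes tested, and 2.91% of all genes were called lower. The drops were small, between 0.19 and 0.49 on the log2 scale. The count was 1 without WT library 1 or h4 library 3, 2 without WT library 2 and 10 without WT library 3, and 2 with the deposited effective lengths as an offset. Across the family, 55 of 79 members had a log2 fold change below 0, or 69.6%, against 46.8% of all genes, and the median member stood at -0.08 against 0.01 for all genes tested.

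**Figure D2:**
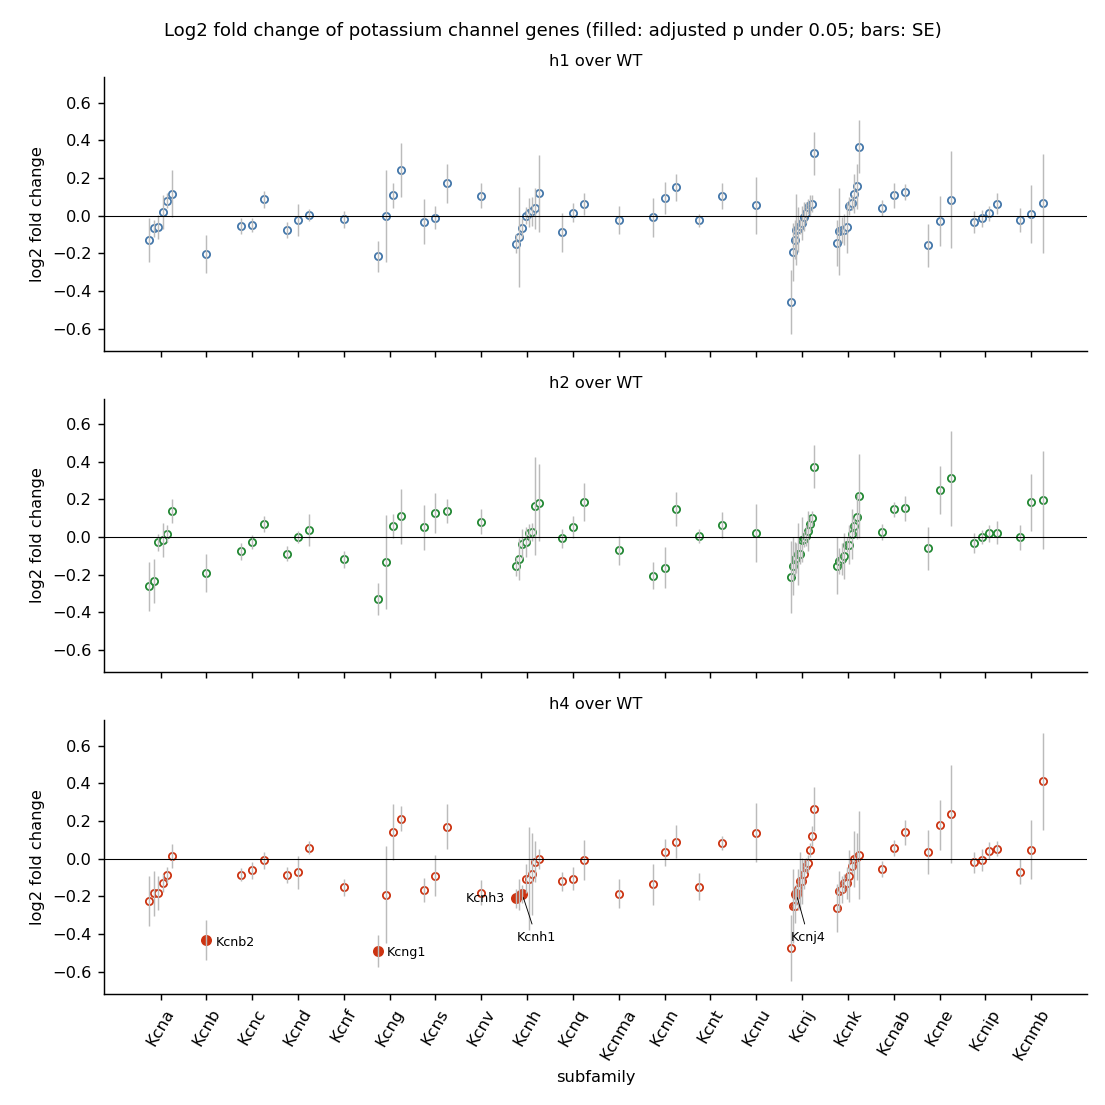
The log2 fold change over WT of each member reported here is plotted by subfamily for h1 (top), h2 (middle) and h4 (bottom), with the standard error as a bar; filled, named points passed an adjusted p of 0.05. No member is filled for h1 or h2, and the 5 filled members for h4 all lie below 0.

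Kcnb2 encodes a delayed rectifier of the Shab type and lies at chr1:15287254-15723750 (plus strand, GRCm38), 24.5 Mb from Il1r1. In h4 it had 10.1, 9.15 and 8.82 CPM, against 13.0, 13.9 and 10.85 CPM in WT, without overlap. It fell by 0.43 (log2 scale, SE 0.10; adjusted p = 0.0151), and the call was lost without WT library 1 or 2 or h4 library 3, with adjusted p-values from 0.0737 to 0.119.

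Kcng1 showed the largest drop that was called in the family. Its product forms no channel of its own and enters heteromers with Shab-type subunits; the gene lies at chr2:168260117-168281736 (minus strand). It had 17.0, 22.1 and 18.0 CPM in h4, against 29.6, 25.8 and 24.3 CPM in WT. The groups did not overlap, and h4 library 2 was nearest to WT. Kcng1 fell by 0.49 (log2 scale, SE 0.09; adjusted p = 0.0013), and the call held without each of the 12 libraries in turn, with adjusted p-values from 8.49e-05 to 0.0167.

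Of 8 Kcnh genes, 2 were called in h4 and 7 had a log2 fold change below 0, where 4.55% and 46.8% of all genes tested did so. Kcnh1, a voltage-gated channel of the ether-a-go-go type (chr1:192190774-192510159, plus strand, 152 Mb from Il1r1), had 70.4, 72.8 and 67.2 CPM in h4, against 80.9, 76.9 and 80.7 CPM in WT. Its groups did not overlap, and both were tight. It fell by 0.19 (log2 scale, SE 0.05; adjusted p = 0.0224); the adjusted p was 0.118 without WT library 1, 0.0616 without h4 library 1, 0.118 without h4 library 3 and 0.0502 with Xist level as a covariate. Kcnh3, a forebrain channel of the same type that is open below the firing threshold (chr15:99224861-99242817, plus strand), had 60.4, 60.1 and 56.0 CPM in h4, against 71.9, 69.2 and 62.1 CPM in WT. It fell by 0.21 (log2 scale, SE 0.05; adjusted p = 0.0176), and lost the call without WT library 1 or 2 or h4 library 3, with adjusted p-values from 0.0879 to 0.16. For Kcnh3 the WT libraries were spread more widely than those of h4, and WT library 3 lay close to h4.

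Kcnj4 was the single member called among 13 inward rectifiers, where 4.55% of all genes tested were called. It encodes a strong inward rectifier of forebrain neurons and lies at chr15:79483714-79505241 (minus strand). It had 42.9, 49.9 and 46.5 CPM in h4, against 50.7, 54.3 and 52.8 CPM in WT, and the groups all but touched. It fell by 0.19 (log2 scale, SE 0.06; adjusted p = 0.0467), the weakest of the 6 calls. It was lost without 9 of the 12 libraries, each WT library, each h1 library, h2 library 3 and h4 libraries 1 and 3, with adjusted p-values from 0.05 to 0.25, and DESeq2 gave it an adjusted p of 0.0556.

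**Figure D3:**
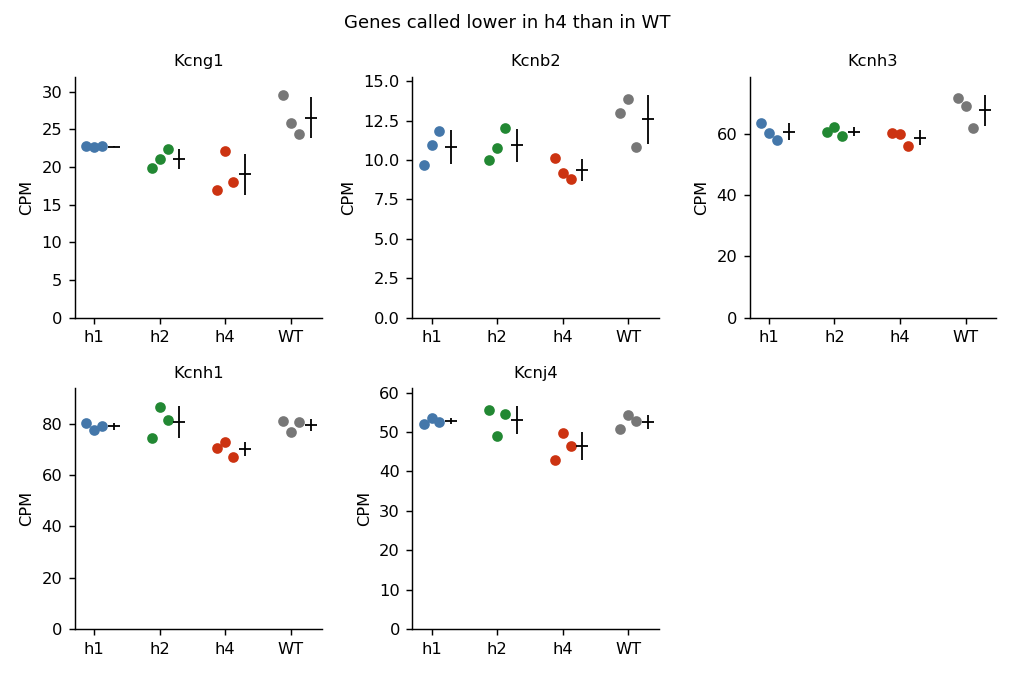
CPM of the 5 genes described as called lower in h4 than in WT, by genotype, with 1 point per library and the mean and SD (n = 3) as a black mark beside the points; the vertical axes start at 0. In each panel the 3 h4 points lie below the 3 WT points, and for Kcnj4 the groups nearly touch, at 49.9 CPM in h4 and 50.7 CPM in WT.

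Retinoid-related orphan receptors such as the product of Rorb bind DNA at a core of AGGTCA or GGGTCA preceded by an A/T-rich stretch, and these letters were looked for on both strands in the 250 bases before the start sites of RefSeq (GRCm38.p6). Of the 79 members, 57 had an entry, with 81 windows. AGGTCA was in 5 of these 81 windows, or 6.17%, against 14.0% of all 32851 windows, and GGGTCA in 12 of 81, or 14.8%, against 11.6%. Either core was in 17 of the 81 windows, a smaller share than the 23.8% of all windows. The windows of Kcnh1 and Kcnj4, the 2 members called lower in all 3 comparisons of h4, which share its libraries, are shown. Both hold a match, in capitals. The Kcnh1 window (chr1:192190527-192190776, plus strand) has AGGTCA on the opposite strand, read here as TGACCT, beginning 223 bases before the start. The Kcnj4 window (chr15:79505242-79505491, minus strand) has GGGTCA on the gene's strand beginning 88 bases before the start. The A/T-rich stretch was not part of the search, and the bases just before the Kcnj4 match are mostly G and C.
Kcnh1: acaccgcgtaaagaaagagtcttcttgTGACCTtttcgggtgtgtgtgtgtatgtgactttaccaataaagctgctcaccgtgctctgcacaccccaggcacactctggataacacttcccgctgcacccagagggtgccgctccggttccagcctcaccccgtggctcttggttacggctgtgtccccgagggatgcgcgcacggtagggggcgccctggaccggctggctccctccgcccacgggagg
Kcnj4: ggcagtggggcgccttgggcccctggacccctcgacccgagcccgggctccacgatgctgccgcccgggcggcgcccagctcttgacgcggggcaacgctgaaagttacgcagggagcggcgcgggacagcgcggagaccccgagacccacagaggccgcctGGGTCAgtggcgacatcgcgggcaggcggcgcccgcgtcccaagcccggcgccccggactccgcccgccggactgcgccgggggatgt
A match describes these letters in these windows and is not a binding site.

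Other members of small p in h4 did not pass. The silent subunit Kcnf1 had 92.0, 98.6 and 88.4 CPM in h4, against 104, 107 and 96.2 CPM in WT (log2 fold change -0.15, SE 0.04, adjusted p = 0.0522). For Kcnf1, WT library 3 lay among the h4 libraries. Kcng4 pointed the other way, with 40.8, 40.1 and 44.0 CPM in h4, against 35.8, 36.3 and 35.0 CPM in WT (0.21, SE 0.07, adjusted p = 0.0609), and its groups did not overlap. Kcna6, an axonal voltage-gated channel, stood at -0.13 on that scale (SE 0.05, adjusted p = 0.116).

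By role, the h4 values below 0 were spread over most pore-forming classes. Of 15 classical voltage-gated pore subunits (Kcna, Kcnb, Kcnc and Kcnd), 13 were below 0, with a median of -0.09. Among 9 silent subunits 6 were below 0, among 12 Kcnh and Kcnq genes 11, among 13 inward rectifiers 10 and among 10 leak channels 8. Of 7 calcium-, sodium- and pH-gated channels, 3 were below 0, and of 13 auxiliary subunits 4, with a median of 0.05. No gene of these classes or of the 10 leak channels was called in h4. Of all genes tested, 4.55% were called in h4 and 46.8% were below 0. The summed Kcna level was 490 to 537 CPM in h4, against 542 to 567 CPM in WT, and the summed Kcnk level 213 to 227 CPM in h4, against 231 to 234 CPM in WT, both without overlap. The Kcnh sum was 307 to 319 CPM in h4, against 325 to 358 CPM in WT, also without overlap, while the Kcnj sum was 768 to 794 CPM in h4 and 766 to 786 CPM in WT.

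In h4, the libraries of 24 members did not overlap with those of WT, 30.4% of the family against 21.3% of all genes tested. Of these, 18 were lower in h4, where 9.17% of all genes were, and 6 were higher, where 12.1% of all genes were. For h1 against WT 11.4% of members did not overlap, against 14.9% of all genes, and for h2 against WT 11.4% against 15.2%. Between mutants the shares were 30.4% against 24.2% for h4 and h1, and 19.0% against 21.7% for h4 and h2. For h2 and h1 they were 21.5% against 15.5%. Among inward rectifiers, 8 of 13 did not overlap between h4 and WT. Kcnj6, a subunit of the G-protein-gated channels, had 15.8, 14.7 and 15.1 CPM in h4, against 18.7, 18.9 and 16.4 CPM in WT (log2 fold change -0.25, adjusted p = 0.138). Kcnj14 had 3.24, 2.34 and 2.15 CPM in h4, against 3.55, 3.54 and 3.62 CPM in WT (-0.48, SE 0.18, adjusted p = 0.133), the second lowest fold change of the family. Kcnj11, the pore of ATP-sensitive channels, stood at -0.16 (adjusted p = 0.464), and Kcnj16, the glial partner of Kcnj10, at 0.12 (adjusted p = 0.239). Kcnj10 itself had 389, 390 and 409 CPM in h4 and 366, 384 and 394 CPM in WT (0.05, adjusted p = 0.61).

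Against WT, no member was called in h1 or in h2. In h1, 0 of 79 members passed, against 0.625% of all genes tested, and 7 members, or 8.86%, had an unadjusted p under 0.05, against 9.82% of all genes. In h2, 0 of 79 passed, against 0.679% of all genes, and 11 members, or 13.9%, had an unadjusted p under 0.05, against 11.5%. DESeq2 also called 0 members in each. The median log2 fold change of the family was -0.01 in h1 and 0.00 in h2, beside 0.00 for all genes in both, and 41 members in h1 and 39 in h2 were below 0, where 49.8% and 48.7% of all genes were.

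In h1, the member with the smallest p was Kcnab1, a beta subunit that speeds the inactivation of Kcna channels, with 135, 143 and 146 CPM, against 131, 126 and 135 CPM in WT (log2 fold change 0.13, SE 0.04, adjusted p = 0.217). Its groups overlapped at 1 library. Kcnj14 had 1.97, 2.69 and 3.00 CPM in h1, below each WT library (-0.46, SE 0.17, adjusted p = 0.31), and Kcnk6, a leak channel, had 4.63, 5.89 and 4.42 CPM in h1, against 4.15, 3.73 and 3.77 CPM in WT (0.37, SE 0.14, adjusted p = 0.329). Kcnc2 stood at 0.09 (adjusted p = 0.523), Kcnn2 at 0.15 (adjusted p = 0.477) and Kcnb2 at -0.20 (adjusted p = 0.518) in h1.

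In h2, Kcng1 came nearest, with 19.8, 21.1 and 22.45 CPM, against 29.6, 25.8 and 24.3 CPM in WT. No h2 library reached a WT library. Its change of -0.33 (log2 scale, SE 0.08) had an adjusted p of 0.0696. Kcng1 passed in h2 in a fit of the h2 and WT libraries alone, and 5 members passed without WT library 3, where the calls over all genes rose as well, to 348 without that library, against 112 with it. Kcnab1 stood at 0.15 in h2 (SE 0.04, adjusted p = 0.098), Kcns2 and Kcna4 each at 0.14 (adjusted p = 0.387 and 0.374), Kcnab3 at 0.15 (adjusted p = 0.371), Kcnn2 at -0.21 (adjusted p = 0.224), Kcnf1 at -0.12 (adjusted p = 0.293) and Kcnj10 at 0.10 (adjusted p = 0.309).

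Kcnj13, the inward rectifier of the choroid plexus epithelium, averaged above WT in all 3 mutants without passing in any, and its h1 libraries overlapped with WT. It had 8.06, 6.47 and 7.03 CPM in h1, 7.003, 7.91 and 7.36 CPM in h2 and 6.94, 6.58 and 7.33 CPM in h4, against 6.53, 5.30 and 5.39 CPM in WT. The log2 fold change was 0.33 in h1 (adjusted p = 0.252), 0.37 in h2 (adjusted p = 0.144) and 0.26 in h4 (adjusted p = 0.23). Kcnj13 shares 623 exonic bases with Gigyf2 on the opposite strand, which had 87.9 CPM, and since the library kit keeps no strand its value is uncertain. The summed level of 8 choroid plexus markers was 703 to 801 CPM in h1 and 715 to 855 CPM in h2. It was 646 to 862 CPM in h4 and 648 to 767 CPM in WT. Against WT, 1 of these markers was called higher in h2, 1 in h4 and 0 in h1. Of all genes tested, 0.679%, 4.55% and 0.625% were called in these comparisons. The part of these markers in the Kcnj13 values was not tested.

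In the mean of the 3 mutants, 2 members passed, Kcng1 and Kcnh3, both lower, or 2.53% of members against 1.10% of all genes tested (0.612% lower). Over the 9 mutant libraries Kcng1 had 17.0 to 22.8 CPM, against 24.3 to 29.6 CPM in WT, with no overlap (log2 fold change of the mean of the mutants -0.345, SE 0.07, adjusted p = 0.0096). No other member separated the 9 mutant libraries from the 3 WT libraries, and 1.83% of all genes did. Within genotypes Kcng1 averaged 22.7 ± 0.11 CPM in h1, 21.1 ± 1.31 CPM in h2 and 19.0 ± 2.69 CPM in h4, against 26.6 ± 2.71 CPM in WT (SD, n = 3 each). The Kcng1 call was lost without WT library 1 (adjusted p = 0.276) or 2 (adjusted p = 0.0553), and with the deposited effective lengths as an offset (log2 fold change -0.31, adjusted p = 0.11).

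Kcnh3 had 56.0 to 63.8 CPM over the mutants, against 62.1 to 71.9 CPM in WT, so that WT library 3 lay within the mutant range (log2 fold change -0.17, SE 0.04, adjusted p = 0.0378). Its averages were near one another in the mutants, at 60.8 ± 2.82 CPM in h1, 60.8 ± 1.41 CPM in h2 and 58.8 ± 2.44 CPM in h4, against 67.7 ± 5.06 CPM in WT (SD, n = 3 each). The call was lost without each of 6 libraries: WT library 1 (adjusted p = 0.485), WT library 2 (0.273), h1 library 2 (0.0585), h1 library 3 (0.069), h2 library 3 (0.0564) and h4 library 3 (0.061). Since all 3 WT libraries have high Xist and only 4 of the mutant libraries do, the same value was taken with Xist level as a covariate, where Kcng1 had an adjusted p of 0.0098 and Kcnh3 of 0.215. Kcnh3 was also lost with the high-Xist libraries alone (0.318) and with the length offset (0.144).

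Between mutants, h4 was lower than h1 for 6 members: Kcnv1, Kcna1, Kcnh1, Kcnk2, Kcnj4 and Kcnt2. These are 7.59% of the family, against 4.64% of all genes tested (2.53% lower), and none was higher. Of 79 members, 56 were below 0, where 48.4% of all genes were, with a median of -0.07 against 0.01 for all genes. The silent subunit Kcnv1 (chr15:45106284-45114920, minus strand) had 61.2, 64.1 and 59.8 CPM in h4, against 68.7, 74.5 and 79.6 CPM in h1. The groups did not overlap, and Kcnv1 was 0.29 lower in h4 than in h1 (log2 scale, SE 0.07, adjusted p = 0.0215). Against WT, Kcnv1 stood at 0.106 in h1 and -0.182 in h4 (adjusted p = 0.644 and 0.155). Kcna1, the axonal channel whose human counterpart is mutated in episodic ataxia (chr6:126640397-126646384, minus strand), had 288, 274 and 292 CPM in h4, against 310, 338 and 298 CPM in h1. It was 0.17 lower in h4 than in h1 (log2 scale, SE 0.04, adjusted p = 0.0216). Against WT, Kcna1 stood at 0.08 in h1 and -0.087 in h4 (adjusted p = 0.556 and 0.283).

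The leak channel Kcnk2, opened by membrane stretch and lipids (chr1:189207930-189402273, minus strand), had 42.9, 46.9 and 45.2 CPM in h4, against 49.7, 51.8 and 49.5 CPM in h1 (log2 fold change -0.18, SE 0.05, adjusted p = 0.0276). Kcnt2, a sodium-activated channel (chr1:140246158-140612067, plus strand), had 26.3, 26.9 and 29.5 CPM in h4, against 29.3, 34.3 and 33.8 CPM in h1 (-0.26, SE 0.07, adjusted p = 0.0365). Against WT, Kcnk2 stood at 0.05 in h1 and -0.131 in h4 (adjusted p = 0.805 and 0.128). Kcnt2 stood at 0.105 in h1 and -0.15 in h4 against WT (adjusted p = 0.665 and 0.271). Between h4 and h1 the Kcnk2 libraries did not overlap, whereas the highest h4 library was just above the lowest h1 library for Kcnt2. Kcnh1 had 80.3, 77.6 and 79.0 CPM in h1 and Kcnj4 52.2, 53.7 and 52.5 CPM, all above h4, and the log2 fold changes were -0.19 (adjusted p = 0.0222) and -0.205 (adjusted p = 0.0302). No call in this comparison held without every library. Without h1 library 2 the adjusted p was 0.0855 for Kcnv1, 0.154 for Kcna1, 0.106 for Kcnj4, 0.118 for Kcnk2 and 0.161 for Kcnt2, and without h4 library 1 none of the 79 members passed. One member passed without h1 library 3, where Kcnv1 had 0.0775, Kcnh1 0.0684, Kcnj4 0.0783, Kcnk2 0.059 and Kcnt2 0.148, and 2 without h4 library 3, where Kcnv1 had 0.0993, Kcnh1 0.129, Kcnj4 0.0959 and Kcnk2 0.0847. Kcna1 and Kcnt2 were also lost without h4 library 2 (0.0673 and 0.0887), and Kcnh1 and Kcnj4 without h1 library 1 (0.066 and 0.0532). With the length offset Kcnv1 alone passed (0.0464), and the others had 0.0657 to 0.12 at log2 fold changes of -0.168 to -0.263. With Xist level as a covariate Kcnj4 (0.0666), Kcnk2 (0.0596) and Kcnt2 (0.0563) did not pass. In the same comparison 6 of 8 oligodendrocyte markers were called lower in h4, where 2.53% of all genes were. Their summed level was 11580 to 12410 CPM in h4, against 13260 to 13690 CPM in h1, and their part in these results was not tested.

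Against h2, h4 was lower for 5 members, Kcns2, Kcnh1, Kcnk2, Kcnv1 and Kcnj4, and higher for 1, Kcnj16; together 7.59% of the family, against 3.22% of all genes tested (1.68% lower and 1.54% higher). Kcns2, a silent subunit (chr15:34837355-34843407, plus strand), had 22.9, 21.97 and 22.4 CPM in h4, against 27.5, 28.2 and 26.8 CPM in h2. It was tight within both genotypes, and 0.30 lower in h4 than in h2 (log2 scale, SE 0.06, adjusted p = 0.007). This call held without each of the 12 libraries, with adjusted p-values from 0.0047 to 0.0472. Against WT, Kcns2 stood at 0.138 in h2 and -0.166 in h4 (adjusted p = 0.387 and 0.158). Kcnj16 (chr11:110968033-111027968, plus strand) had 41.2, 40.5 and 41.1 CPM in h4, against 36.3, 34.3 and 35.4 CPM in h2 (log2 fold change 0.21, SE 0.05, adjusted p = 0.0308). Its call was lost without h2 library 2 (adjusted p = 0.14) or 3 (0.0718) or any h4 library (0.0582 to 0.107). Against WT, Kcnj16 stood at -0.089 in h2 and 0.118 in h4 (adjusted p = 0.564 and 0.239).

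The other 4 genes are also among those called against h1, and the comparisons share the h4 libraries given above. Kcnh1 had 74.3, 86.4 and 81.5 CPM in h2, all above h4 (log2 fold change -0.22, SE 0.05, adjusted p = 0.0109; 0.115 without h2 library 2 and 0.0705 without h4 library 3). Kcnk2 had 51.7, 50.1 and 51.4 CPM in h2 (-0.19, SE 0.05, adjusted p = 0.0253), and Kcnv1 76.3, 76.3 and 68.5 CPM (-0.26, SE 0.07, adjusted p = 0.0426), both above every h4 library. Kcnk2 lost the call without any h2 library or h4 library 1 or 3 (0.0579 to 0.139), and Kcnv1 without any of 7 libraries, WT library 2, h1 library 2, h2 library 1 or 2 or any h4 library (0.0613 to 0.162). For Kcnj4, h2 library 2, at 49.1 CPM, lay below h4 library 2, so the groups overlapped (-0.20, SE 0.06, adjusted p = 0.0462), and the call was lost without 9 of 12 libraries, WT library 1 or 2, any h1 library, h2 library 1 or 3 and h4 library 1 or 3 (0.0501 to 0.252). One member passed without h4 library 3, 2 without h4 library 1 or h2 library 2, and 3 without h2 library 1. With the length offset Kcns2 alone passed (0.032), and the others had 0.06 to 0.142. With Xist level as a covariate Kcnj4 (0.0864) and Kcnv1 (0.0671) did not pass, with DESeq2 Kcnj4 (0.0653) and Kcnj16 (0.0573), and in a fit of the h4 and h2 libraries alone Kcnj4 (0.0817).

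Between h2 and h1, 1 member was called, 1.27% of the family against 0.722% of all genes tested (0.534% lower). Kcnn2, a channel that calcium opens and that contributes to the afterhyperpolarization of neurons (chr18:45268860-45686024, plus strand), had 28.3, 30.8 and 32.0 CPM in h2, against 37.7, 41.2 and 37.4 CPM in h1, with 34.9, 39.0 and 34.9 CPM in h4 and 33.2, 39.7 and 32.6 CPM in WT. Every h2 library was the lower, while the WT libraries reached from near h2 to within the h1 range. Kcnn2 fell by 0.36 in h2 relative to h1 (log2 scale, SE 0.07; adjusted p = 0.0121). The call was lost without h1 library 2 (adjusted p = 0.114), h2 library 1 (0.0916) or h2 library 2 (0.0581), and was 0.128 with the deposited effective lengths as an offset. Kcnn2 shares 284 exonic bases with the antisense gene A330093E20Rik, which had 1.36 CPM.

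**Figure D4:**
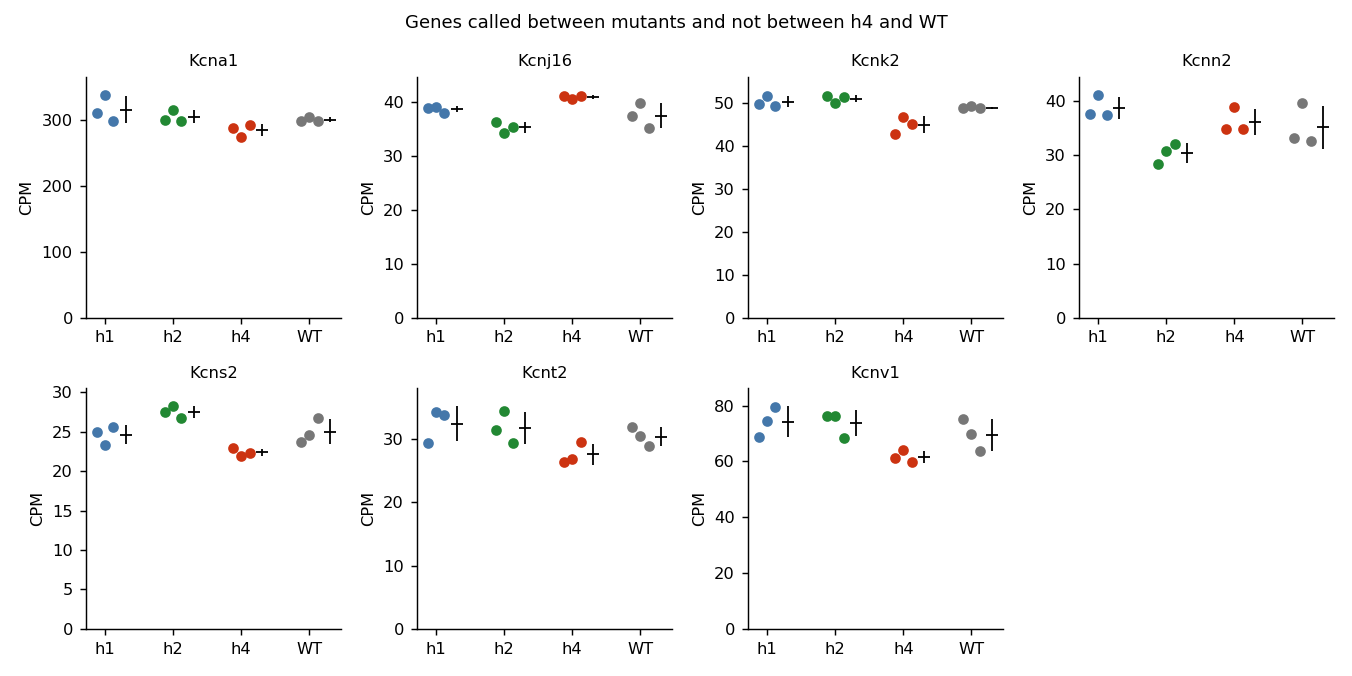
CPM of the 7 members called between mutants and not between h4 and WT, by genotype, with 1 point per library and the mean and SD (n = 3) as a black mark; the vertical axes start at 0. Kcns2 is lowest in h4 and highest in h2, Kcnj16 is highest in h4, and Kcnn2 is lowest in h2.

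Genes that work with the channels were followed in lists of their own. Against WT, 4.55% of all genes tested were called in h4 (2.91% lower), 0.625% in h1 and 0.679% in h2. Of 22 tested partners, which anchor, cluster or modify potassium channels, 4 were lower in h4 than in WT and none higher: the scaffolds Dlg4 (log2 fold change -0.19, adjusted p = 0.002) and Dlg2 (-0.15, adjusted p = 0.0252), which bind Kcna and Kcnj channels, and the ankyrins Ank3 (-0.22, adjusted p = 0.00097), which holds channels at the axon initial segment, and Ank2 (-0.17, adjusted p = 0.0077). In h1, 1 partner was higher, Lgi3 (0.18, adjusted p = 0.0173), and 1 lower, Lrrc55 (-0.36, adjusted p = 0.0258), an auxiliary subunit of the Kcnma1 channel.

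Of 14 pumps and cotransporters that set the potassium and chloride gradients, 3 passed in h4, among them Slc12a5 and Atp1b3. Of all genes tested, 4.55% passed in h4. Slc12a5, the neuronal potassium-chloride exporter, averaged 449 CPM in h4, against 530 CPM in WT (log2 fold change -0.25, SE 0.04, adjusted p = 0.00011). The sodium pump subunit Atp1b3 was higher in h4 (0.18, adjusted p = 0.0111). In h1, the importer Slc12a2 was higher (0.20, adjusted p = 0.0218). No gene of these lists passed in h2, and none of 20 Kctd genes, which share a domain with voltage-gated channels and form no pore, passed in any mutant against WT.

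Some lists of region and cell type markers differed between h4 and WT, and others did not. No marker of the cerebellum, thalamus, striatum, microglia, endothelial or meningeal fibroblast lists was called between them. Of all genes tested, 4.55% were. All 8 neocortex markers were detected, and their summed level was 1008 to 1051 CPM in h4, below the 1059 to 1089 CPM of h1, the 1066 to 1088 CPM of h2 and the 1064 to 1131 CPM of WT; Tbr1 (-0.19, adjusted p = 0.0341) and Rasgrf2 (-0.14, adjusted p = 0.0211) were among those called lower in h4. Among 8 astrocyte markers, 5 were higher in h4, Gfap by 0.38 (adjusted p = 0.0017), although their summed level was 5472 to 5587 CPM in h4 and 5400 to 5539 CPM in WT. Of 8 neuron markers none was called, with 5535 to 5580 CPM in h4 and 5452 to 5584 CPM in WT.

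One h4 library stood apart in regional markers: h4 library 2 had 1324 CPM of cerebellum markers and 896 CPM of striatum markers, where the other h4 libraries had 1606 and 1670 CPM and 711 and 762 CPM, and WT had 1385 to 1551 CPM and 813 to 829 CPM. Without it, 6 members were called in h4 against WT, though not the same 6 as with it. Kcnb2, Kcng1, Kcnh1, Kcnh3 and Kcnj4 kept the call, with adjusted p-values from 8.49e-05 to 0.0421. In h1, 6 of 8 oligodendrocyte markers were higher, where 0.625% of all genes were called. Their sum was 13260 to 13690 CPM in h1, against 10230 to 11670 CPM in WT. No marker of these lists was at 0 in every library. The part of these markers in the channel gene results was not tested.

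**Figure D5:**
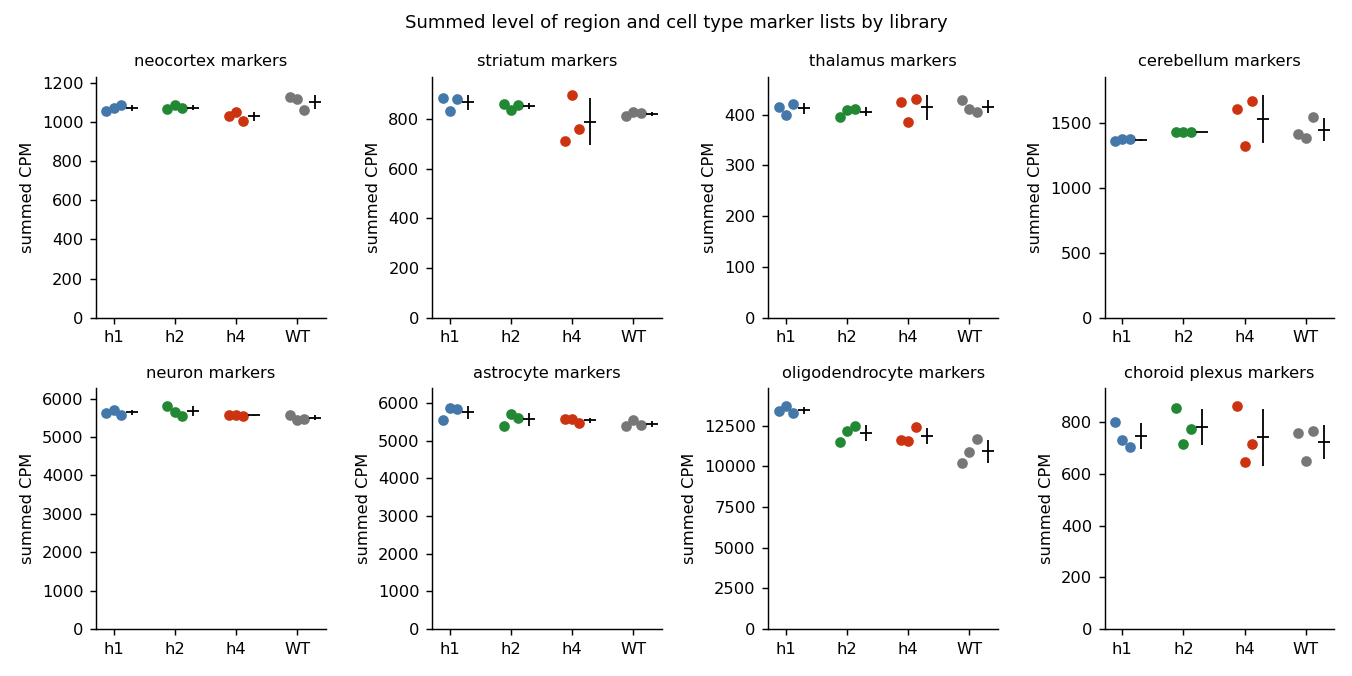
Summed CPM of 8 marker lists by genotype, with 1 point per library and the mean and SD (n = 3) as a black mark; the vertical axes start at 0. Neocortex markers are lowest in the 3 h4 libraries, at 1008 to 1051 CPM. Of the genotypes, h4 has the widest range for striatum, cerebellum, thalamus and choroid plexus markers.

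The median fold change over all genes was lower for longer transcripts in each mutant. The median length was 3456 bases for members and 2568 bases for all genes tested. By length quartile, the median log2 fold change over WT of all genes was 0.02 in the lowest quartile and -0.02 in the top quartile (over 3812 bases) for h1. The same medians were 0.03 and -0.03 for h2, and 0.04 and -0.02 for h4. The 30 members in the top quartile had a median of -0.01 in h1, 0.00 in h2 and -0.11 in h4, where 3 were called and 26 were below 0. In that quartile 8.83% of all genes were called in h4. With the deposited effective lengths as an offset, 2 of the 6 members called in h4 passed, among them Kcng1 (adjusted p = 0.016), and Kcnb2, Kcnh1, Kcnh3 and Kcnj4 had adjusted p-values from 0.0722 to 0.125. Their log2 fold changes with the offset were -0.44, -0.20, -0.215 and -0.19 in that order, against -0.43, -0.19, -0.21 and -0.19 without it, and over all genes 306 were called with it, against 751 without it. Kcnh3 and Kcnj4 have the same deposited transcript length in every library.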

How the data were processed

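Whole-brain poly(A) RNA of 12 mice was sequenced as 100 bp paired-end libraries (TruSeq v2), per the labels' protocols; this kit does not keep the strand. Per the submitters' processing notes, the authors used Bowtie2 2.2.0 and RSEM 1.2.12; their genome build and gene models: not given in the sources used here. Per the file headers, each deposited table holds RSEM expected counts (estimated fragments per gene, not normalized), TPM and FPKM of 1 library. Of the values above 0, 77.7% are whole to 2 decimals. FPKM was not used. The deposited expected count and TPM columns were the source of the levels and tests here. Length values and the length offset came from the deposited length and effective length columns.

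Gene IDs were matched to GENCODE M21 (GRCm38): 37607 of 38924 were found, and gene positions are from it. Promoter windows are from RefSeq (GRCm38.p6). Expected counts were rounded and tested in edgeR 4.0.16 (R 4.3.3, limma 3.58.1): filterByExpr (22431 genes removed), TMM factors of 0.991 to 1.012, and the robust quasi-likelihood fit over 12 libraries with 1 mean per genotype and 8 residual degrees of freedom. The 7 comparisons were each mutant and the mean of the mutants against WT, and the mutants against one another, two-sided, with Benjamini-Hochberg adjustment over 16493 genes and a threshold of 0.05. The common biological coefficient of variation was 0.0531. CPM is per plain library total. The fit was also run on simulated data that gave every gene a coefficient of variation of 0.0531 and changes larger than those of called members. That run does not bear on calls of smaller changes or on genes of wider spread. Library totals were 14513825 to 24694178 expected counts, and precision is lowest for members near 1 CPM.

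Alternatives were RLE scaling, no low-count filter, DESeq2 1.42.0, Xist level as a covariate, effective length as an offset, only the groups compared, each library left out, a replicate block and, chosen after seeing the data, the 7 libraries of high Xist alone. The members and lists were chosen with earlier results of these data known, so no list was tested as a set. Named genes were every member called in any comparison, the 10 members of smallest unadjusted p for each mutant against WT, the member of highest TPM in each subfamily, the 3 members and 3 genes beside the CPM minimum, and called genes of the other lists, of which some are not reported here; further members were named after their values were seen: Kcnj6 and Kcnj11 for h4, Kcng3 for its spread, and Kcnd3, Kcnip2, Kcnk4, Kcnmb2, Kcnq3 and Kcnq5 in the closing observations. WT, h1, h2 and h4 follow the genotype label; library numbers only name mice.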

Additional observations from a re-analysis of the deposited data

How the results depend on the processing

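Several choices moved the number of members called. For h4 against WT (6 called), 7 were called with RLE scaling, 7 with DESeq2, 7 in a fit of the groups compared alone, 7 with the high-Xist libraries alone, 4 with Xist level as a covariate, 10 with no low-count filter and 2 with the effective length offset; 1 of those called, Kcng4, was higher in the fit of the groups alone, with the high-Xist libraries and with no filter. For h4 against h1 (6 called), 10 were called with no filter, 1 with the length offset and 0 with the high-Xist libraries alone, which leave h1 a single library whose spread is assumed to be like that of the others. For h4 against h2 (6 called), the length offset gave 1. For h2 against h1 (1 called), no filter gave 2, the length offset 0 and the high-Xist libraries alone 0, which here compare 1 library of each genotype and so bear little on the call. For h2 against WT (0 called), no filter gave 2, the Xist covariate 1 and the groups compared alone 1. For the mean of the mutants (2 called), DESeq2, where Kcng1 has no adjusted p, gave 1, the Xist covariate 1, the high-Xist libraries alone 1 and the length offset 0. No alternative but leaving out a library called a member in h1 against WT. Leaving out each library in turn gave 0 to 1 members for h1 against WT, 0 to 5 for h2 against WT, 1 to 10 for h4 against WT, 0 to 7 for the mean of the mutants, 0 to 1 for h2 against h1, 0 to 7 for h4 against h1 and 1 to 7 for h4 against h2. Over all genes the same ranges were 22 to 166, 18 to 348, 230 to 1111, 18 to 505, 44 to 160, 313 to 896 and 251 to 619. The h4 count against WT was 1 without WT library 1 or h4 library 3, 2 without WT library 2 and 10 without WT library 3, and the h2 count against WT was 5 without WT library 3. The cause of these shifts was not tested.

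Of the other values recomputed, 698 were counted as kept. These kept their direction and side of the threshold, or are the family sizes at other CPM minimums given below. Another 130 lost a call, counting Kcng1 in the mean of the mutants with DESeq2, which has no adjusted p. A further 27 gained a call and 1 reversed: Kcna4 in h2 against WT was -0.071 with the length offset and 0.14 without it. With a replicate block in h2 against h1, 1 member was called, Kcnn2 (adjusted p = 0.00399). Libraries of the same number in h1 and h2 did not deviate together (r of -0.147, -0.112 and 0.028), so the numbers are not taken to pair mice. The fit of the groups compared alone was not run for the mean of the mutants. With a minimum mean of 0.5 CPM the family has 80 members, and with 2 CPM 74. Members near 1 CPM, such as Kcnmb1 and Kcnh8, have standard errors of 0.26 to 0.27 on the log2 scale, so changes of the size seen in called members were not detectable in them.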

Other observations

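Of the antisense genes named for channel genes, which are not members, Kcnmb4os2 averaged 1.33 CPM over the 12 libraries. Kcnd3os, which averaged 0.654 CPM, had 0.443 to 0.511 CPM in h1, 0.468 to 0.689 CPM in h2 and 0.679 to 0.768 CPM in h4, against 0.654 to 1.04 CPM in WT. Its h1 libraries lay below those of WT, and no test of it is given. Of all genes tested, 14.9% did not overlap between h1 and WT. Kcnd3os shares 165 exonic bases with Kcnd3. Kcnd3 had 103 to 109 CPM in h1 and 106 to 117 CPM in WT (log2 fold change -0.08).

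The deposited transcript length of a gene is a mean over its isoforms weighted by their estimated levels. It separated the libraries of h4 from those of WT for 2 members, Kcnab2 and Kcnq5, both shorter in h4, which is 2.53% of the family against 6.86% of all genes. In h1 against WT it separated Kcnq3, longer in h1, and Kcnmb2, shorter in h1, and in h2 against WT it separated Kcnb2, shorter in h2. These are 2.53% of the family against 6.20% of all genes in h1, and 1.27% against 6.32% in h2.

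Of the members on the chromosome of Il1r1, Kcnq5, at 18.3 Mb, and Kcnb2, at 24.5 Mb, lay nearest to it. On the chromosome of Rorb, Kcnk4 is 12 Mb and Kcnip2 26.7 Mb from it. Kcnk4 had 3.95, 3.75 and 4.08 CPM in h4, against 4.57, 4.56 and 4.91 CPM in WT, with no overlap and no call (log2 fold change -0.26, adjusted p = 0.282), and it shares 587 exonic bases with Catsperz on the same strand.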
